A study of Mus musculus with 6 samples.

Results

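Oligodendrocytes wrap axons in myelin, and mature oligodendrocytes of the mouse brain fall into classes with different marker genes. The nuclei described here are mature oligodendrocyte nuclei rich in the RNAs of Anln, which encodes the actin-binding scaffold protein anillin, Sec14l5, of the Sec14-like lipid-binding protein family, the cadherin gene Cdh19, the claudin gene Cldn14 and the noncoding transcripts A330049N07Rik and 4930420G21Rik. They are set against nuclei rich in Il33, a cytokine gene, Opalin, a gene of a myelin membrane protein, Aspa, the gene of the aspartoacylase that releases acetate from N-acetylaspartate, Ninj2, C030029H02Rik and D7Ertd443e. A nucleus was called Anln/Sec14l5-type when it had at least 4 UMIs (unique molecular identifiers, each counted as 1 RNA molecule) of the 5 mature oligodendrocyte genes Mog, Mag, Mobp, St18 and Prr5l together, under 8 UMIs of the neuronal RNA Meg3, at least 2 UMIs of the first set of 6 genes, and at least 2 times as many UMIs of the first set as of the second. Il33/Opalin-type nuclei met the mirror of this rule. Of 43836 barcodes, 40139 were kept as nuclei, with 500 or more genes and mitochondrial UMIs no higher than 5%. Of these, 12933 passed the oligodendrocyte gate, and 3173 were Anln/Sec14l5-type. A further 4339 gated nuclei were Il33/Opalin-type and 5421 were neither.

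The nuclei came from the pons and medulla of male wild-type C57BL6/J mice weaned at postnatal day 21 and group-housed with littermates. From day 22 to 43, for 21 days, 1 group was exposed to chronic intermittent hypoxia (CIH), in which 60 seconds of nitrogen took the chamber to 4.5 to 5% oxygen and up to 5 minutes of air brought it back to 21%. Mice had 80 such cycles a day over 8 hours, and the other group stayed in room air (normoxia). Each group had 3 libraries of sorted nuclei, and whether each held 1 mouse or a pool is not in the labels, so the p-values below speak only for the variation among these libraries, which may be technical. The CIH libraries held 318, 336 and 1058 Anln/Sec14l5-type nuclei with 1172061, 1516770 and 3181452 UMIs in all, and the normoxia libraries held 334, 468 and 659 with 1254050, 1653846 and 1841847. The median member had between 2420 and 3731.5 UMIs in a library.

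Some libraries stood apart. The first CIH and the second normoxia library shared 1563 barcodes, 33.93% and 21.11% of their barcodes, whereas every other pair of libraries shared between 3 and 38. Under a shared barcode the first CIH library held a median of 7.92 times the UMIs of the second normoxia library, and over genes the same-barcode profiles had a median correlation of 0.39, against -0.01 for barcodes that did not match. Of the second normoxia library's 468 members, 59 carried such a barcode, and they held 4.18% of the members' UMIs there. Results are given with these nuclei and, where it changes them, without. The third CIH library differed from the others by a chi-square per gene of 6.98 to 10.7 over member sums, while the other pairs lay between 1.43 and 3.52. This measure grows with the UMIs compared, and members of the third CIH library held the most, as given above. Its members had a median mitochondrial share of 0.354%, against 0.0764 to 0.126% in the other 5 libraries.

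The genes of the rule were detected broadly across the members. Sec14l5 had at least 1 UMI in 83.4 to 95.5% of members of a library and Anln in 77.0 to 86.9%, whereas Cldn14 was seen in 49.3 to 58.6%. In Il33/Opalin-type nuclei Anln was seen in 16.7 to 23.9%, and outside the gate its level was 23.7 to 40.4 CPM (UMIs of the gene per 1000000 UMIs of the summed nuclei), against 789 to 882 CPM in members. Of the 3173 members, 648 had all 6 genes and 84 had only 1 of them. Aspa and D7Ertd443e were not absent from members: they were seen in 65.3 to 82.6% and 50.1 to 58.2%, while Il33 was seen in 2.58 to 5.39% and Opalin in 7.74 to 10.5%. The rule had drawn on these values, which describe the choice and test nothing. At its edge lay 125 members with exactly 2 UMIs of the first set, whose nuclei had a median of 1210 UMIs, and outside it 94 gated nuclei with 1 UMI of the first set and 0 of the second. A larger group of 1948 gated nuclei had at least 2 UMIs of the first set and more than of the second, but under 2 times as many. Ptgds, which the rule did not use, stood at 1751 CPM in the 125 edge members, 1349 CPM in the 94 nuclei, 810 CPM in the 1948 nuclei and 423 CPM in all members. In Il33/Opalin-type nuclei it stood at 3416 CPM. The protease gene Klk6, also outside the rule, read 96.1, 55.8, 53.5 and 112 CPM in the same order, and 9.68 in Il33/Opalin-type nuclei. By Klk6 the edge members thus lay near all members, and by Ptgds between the 2 types.

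General markers were read in members, given as CPM of all UMIs. The 14 general oligodendrocyte genes, Mbp among them, summed to 13823 to 15084 CPM in members of a library. Outside the gate they summed to 1320 to 1971 CPM. Of 6 markers of differentiating oligodendrocytes, Enpp6, a choline-phosphodiesterase gene of the lineage, stood at 374 to 446 CPM, while Gpr17, Bmp4, Neu4 and Casr each stayed at or below 7.23 CPM in all 6 libraries. Itpr2, the other marker of that list, read 19.6, 16.5 and 65.1 CPM in CIH and 8.77, 32.0 and 54.8 in normoxia. Markers of other cell types were not level across libraries, and not all were low beside nuclei outside the gate. Neuron markers, 10 in all, summed to 243 to 565 CPM in members and 3620 to 4180 outside the gate. Microglia markers summed to 104 to 182 CPM against 206 to 313. Granule neuron markers summed to 297 to 347 CPM in members in CIH and 286 to 316 in normoxia. Their sums outside the gate were 412 to 1110 and 284 to 451 CPM. The 8 markers of oligodendrocyte precursors summed to 95.6, 121 and 433 CPM in CIH and to 90.1, 112 and 251 in normoxia, and all 8 had a higher mean in CIH. The 8 astrocyte markers summed to 311, 290 and 735 CPM in the CIH libraries and to 254, 279 and 320 CPM in normoxia. Of the 8, 7 had a higher mean in CIH. Outside the gate the astrocyte sums were 442 to 1023 CPM in CIH and 258 to 338 in normoxia. Slc1a3, 1 of the 8, stood at 184 to 218 CPM in members and at 20.9 to 78.8 outside the gate. The 8 endothelial markers summed to 11.9, 8.57 and 132 CPM in CIH and to 4.78, 21.2 and 64.1 CPM in normoxia. Prx, a marker of Schwann cells, had 8 UMIs in the third CIH library and 0 in the other 5 libraries.

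Within each library, the 2 mature types differed in many genes outside the rule. Because members were chosen for 1 type's genes against the other's, the comparison describes them and has no test. Over 2-fold higher in Anln/Sec14l5-type nuclei in all 6 libraries were 313 of 11503 genes (2.72%), and 166 (1.44%) were over 2-fold lower in all 6. Levels below are CPM scaled over the 12 sums of 2 types and 6 libraries. The largest ratio belonged to Hmcn1. This gene, which encodes the matrix protein hemicentin-1, stood at 189, 272 and 99.6 CPM in members of the CIH libraries and at 210, 248 and 137 in normoxia. In Il33/Opalin-type nuclei it stood at 1.71, 0.76 and 21.9 in CIH and at 1.03, 0.482 and 2.36 in normoxia, so the ratio was smallest in the third CIH library. Dlc1, which encodes a GTPase-activating protein, had 671 ± 109 CPM in members and 28.3 ± 19.7 in Il33/Opalin-type nuclei (mean ± SD, n = 6 libraries). Tenm4, the gene of the adhesion protein teneurin-4, had 468 ± 93.5 against 40.7 ± 15 CPM, and Piezo2, the gene of a mechanically gated ion channel, had 197 ± 38.7 against 7.36 ± 1.54 CPM. The 6 libraries of 1 type lay apart from the 6 of the other for each of these 4 genes. The others of the 12 were Scel, Lmo7, Bace2, Art3, Sdk2, Dpysl5, Greb1l and Shroom1, with median log2 ratios from 3.82 to 6.04. Scel, Lmo7, Bace2 and Art3 stood at 0 CPM in Il33/Opalin-type nuclei of at least 1 library. Their ratios and rank thus rest in part on the small count added before the log2 was taken.

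On the low side, Ptgds, the gene of prostaglandin D2 synthase and a marker of another mature class in atlases of the lineage, stood at 353 ± 209 CPM in members and 3344 ± 576 in Il33/Opalin-type nuclei (mean ± SD, n = 6). Its level in members was 148, 192 and 686 CPM in the CIH libraries and 264, 305 and 525 in normoxia. Members of the third library of each group thus held the most Ptgds. Synpr, the gene of synaptoporin, had 30.4 ± 16.6 against 437 ± 82.2 CPM, and Kit, the gene of the stem cell factor receptor, 3.56 ± 1.69 against 79.5 ± 7.96. The remaining 9 were Slc13a1, Slc7a15, Rasal1, Fbn2, Kif21b, Cacna2d4, Rhoj, Lrp4 and Gfra1, with median log2 ratios from -5.14 to -3.20.

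**Figure D1:**
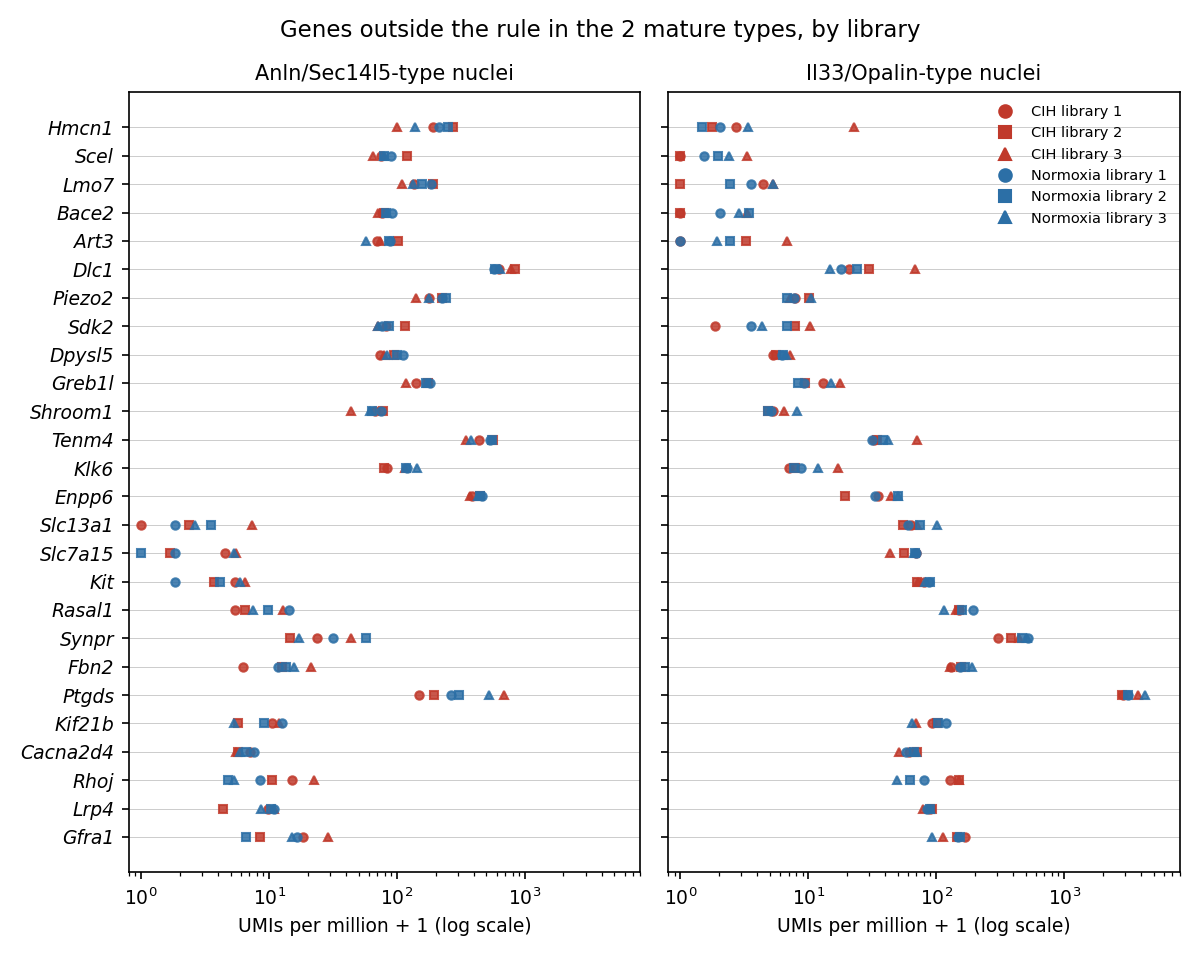
Level of genes outside the rule in Anln/Sec14l5-type nuclei (left) and Il33/Opalin-type nuclei (right), in CPM plus 1 on a log scale, with 1 point per library. The 12 upper genes, Klk6 and Enpp6 lie to the right in Anln/Sec14l5-type nuclei and the 12 lower genes in Il33/Opalin-type nuclei, and the third CIH library holds more Hmcn1 (21.9 CPM) and Dlc1 (67.1 CPM) in the latter than any other library.

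The lists differed in how many genes set the 2 types apart; the genes named in this paragraph were picked from the lists after their values were seen. Of 24 subtype markers, 14 were higher in members in all 6 libraries and 9 lower, against 17.5% and 18% of all genes. Klk6, a protease gene that marks a mature class in atlases, had 109 ± 24.0 CPM against 9.04 ± 3.82 (mean ± SD, n = 6), and Hopx and Anxa5 had median log2 ratios of 2.80 and 2.09. Enpp6 had 421 ± 36.7 against 37.7 ± 12 CPM. Of 31 genes of cholesterol and fatty acid synthesis, 15 were higher in all 6 libraries and 6 lower, with a median log2 ratio of 0.39, against -0.03 over all genes. Sqle, the squalene epoxidase gene, had 73.7 ± 7.55 against 36.1 ± 3.40 CPM. Of 31 genes of axon contact and the node, 5 were higher and 19 lower in all 6, with a median of -0.45. Of 29 genes for potassium channels, gap junctions and transporters, 6 were higher and 15 lower, with a median of -0.45. Kcna1, a voltage-gated potassium channel gene, had 170 ± 30.8 against 482 ± 24.5 CPM, while the sugar transporter gene Slc5a11 had 58.2 ± 9.09 against 3.95 ± 1.75. Of 28 genes of growth factor and Wnt signalling, 5 were higher and 12 lower, with a median of -0.17. Erbb4, a neuregulin receptor gene, had 744 ± 139 against 2568 ± 265 CPM, and Adgrb3, an adhesion receptor gene, 1372 ± 79.6 against 337 ± 59.0. The myelin genes were mixed, with 11 of 31 higher and 16 lower in all 6 libraries: the median log2 ratio was 0.24 for Mbp and -1.17 for the compact-myelin gene Mal.

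The share of gated oligodendrocyte nuclei that were Anln/Sec14l5-type was higher in CIH by the rule as written. It was 25.1, 25.9 and 28.8% in CIH, against 19.9, 22.9 and 22.2% in room air, that is 26.6 ± 1.92% against 21.7 ± 1.55% (mean ± SD, n = 3 each; two-sided exact permutation test, p = 0.1, the smallest p that 3 libraries against 3 allow). The groups did not overlap. Il33/Opalin-type nuclei made up 33.1, 31.4 and 28.0% in CIH and 39.6, 37.9 and 35.2% in normoxia, without overlap. They come from the mirror of the same rule in the same gate, so this is not a separate result. The check below with rule genes left out covers the Anln/Sec14l5-type share only. With each nucleus thinned to 1500 UMIs, which left out between 136 and 773 gated nuclei of a library, the Anln/Sec14l5-type share was 30.6 ± 0.44% against 24.8 ± 2.09%. Without the shared barcodes the normoxia share was 21.2 ± 1.17%. As a share of all kept nuclei, members made up 7.31, 7.56 and 9.94% in CIH and 7.11, 7.07 and 7.02% in normoxia (exact permutation p = 0.1), a difference of 1.20 points. That result changed with the setting: the groups overlapped without the shared barcodes (exact permutation p = 0.2) and under a looser rule of at least 1 UMI of the first set and more than of the second (p = 0.9). They also overlapped with Aspa left out of the rule (0.39 points, exact permutation p = 0.9), with Cdh19 left out (0.69 points, p = 0.2), with D7Ertd443e left out (p = 0.4) and with Opalin left out (p = 0.2). Nuclei were sorted before loading, which can set shares, and the gate itself took 29.1, 29.1 and 34.6% of kept nuclei in CIH and 35.7, 30.9 and 31.7% in normoxia. Nuclei with the highest doublet scores were flagged in each library, at a share set in advance by its number of barcodes. Of kept nuclei, 3.68, 3.82 and 9.62% were flagged in CIH and 4.04, 5.93 and 7.98% in normoxia. Among members the flagged share was 3.46, 3.57 and 8.79% in CIH and 1.20, 3.21 and 4.70% in normoxia, lower in every library. Because the rate was preset, differences between libraries in these shares do not measure doublets. Without the flagged nuclei the groups of gated shares still did not overlap.

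The size of this difference varied with the genes in the rule. The levels of 3 rule genes are given as description only, since members were chosen on them. Aspa, like the levels below scaled by edgeR, stood at 601, 602 and 534 CPM in members of the CIH libraries and at 719, 618 and 696 in normoxia. In Il33/Opalin-type nuclei it stood at 1271, 1252 and 1100 CPM in CIH and at 1464, 1463 and 1596 in normoxia. The CIH libraries lay below normoxia in both types. Cdh19 stood at 653, 619 and 853 CPM in members in CIH and at 583, 546 and 653 in normoxia, where the third normoxia library lay above the first 2 CIH libraries. Each of the 12 genes was left out of the rule in turn, a check added after these levels were seen. Without Aspa the share was 36.9, 40.0 and 41.9% in CIH and 33.8, 35.7 and 39.9% in normoxia, which overlapped (exact permutation p = 0.2), and the difference went from 4.93 to 3.14 percentage points. Without Cdh19 the difference fell about as far, to 3.17 points, and the groups stayed apart. Without Aspa, C030029H02Rik and Cdh19, a set chosen after the levels were seen, it was 1.39 points with overlap (exact permutation p = 0.3). Leaving out any 1 of the other 10 genes, or Mobp from the gate, gave differences from 4.00 to 5.97 points with no overlap. Mobp itself, the gene of a myelin basic protein of oligodendrocytes, stood at 1857, 1752 and 1830 CPM in members in CIH and at 1343, 1322 and 1470 in normoxia.

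**Figure D2:**
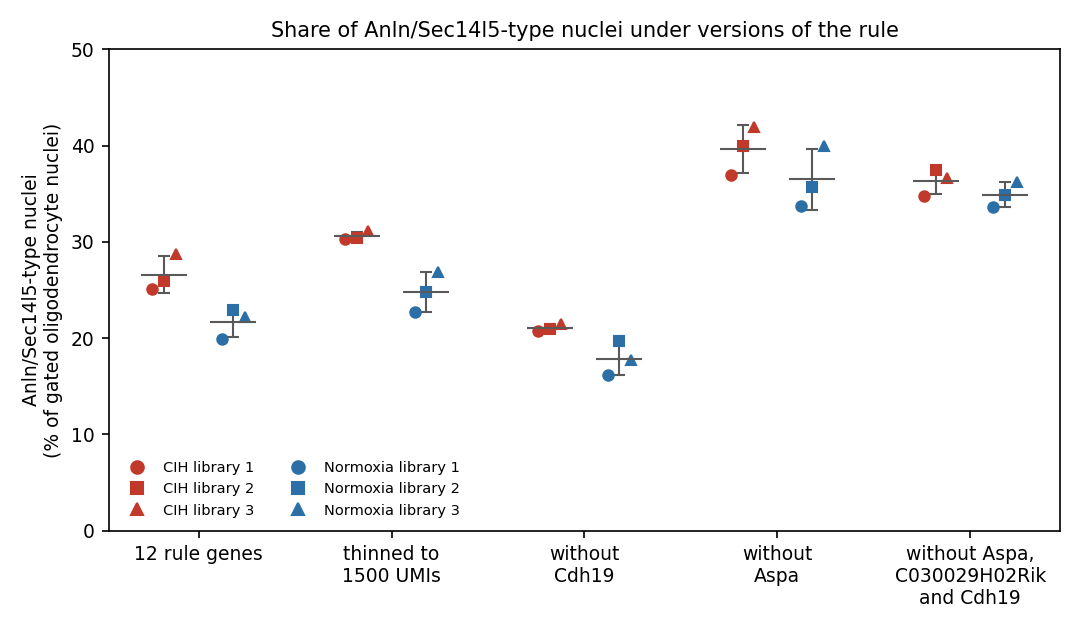
Share of gated oligodendrocyte nuclei that were Anln/Sec14l5-type, in percent, by library (points) with the mean and SD of 3 libraries per group, under the rule as written, after thinning, and with genes of the rule left out. The groups are apart under the first 3 versions and overlap without Aspa, where the CIH libraries read 36.9 to 41.9% and the normoxia libraries 33.8 to 39.9%.

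No gene outside the rule passed the test between CIH and normoxia in Anln/Sec14l5-type nuclei. edgeR's quasi-likelihood test called 0 of 10347 genes (0%) at an adjusted p under 0.05, with 519 genes (5.02%) at an unadjusted p under 0.05, and DESeq2 called 0 with 215 unadjusted. In 518 genes (5.01%) every CIH library lay above every normoxia library and in 552 (5.33%) below. The same shares were 5.06% and 5.55% without the shared barcodes, and 5.6% and 6.23% of genes in Il33/Opalin-type nuclei. Log2 fold changes lay above 0 in 50.8% of the members' genes and in 51.6% of the genes of Il33/Opalin-type nuclei. On simulated data with 10107 genes the same procedure recovered 52 of 100 genes changed 2-fold and 92 of 100 changed 4-fold. False calls were 8 of 152. Those counts were drawn independently for each gene and library, with no shift of a whole library such as the third CIH library shows. The recovery may therefore not hold for these data. Il33/Opalin-type nuclei also had 0 calls among 11133 genes (0%) in edgeR, with 714 (6.41%) at an unadjusted p under 0.05. Without the shared barcodes the members had 0 calls of 10267 genes (0%) and 535 unadjusted (5.21%). Without the third CIH library edgeR called 6 genes: Fam13c, St6galnac3, Ppp1cc, Elmo1, Robo1 and Pakap.

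Genes were named here by smallest p among those without overlap between the groups, so the gap between groups came with the choice. The following values did not pass. The gene listed as Pakap under ENSMUSG00000038729, which GENCODE M21 calls Akap2, encodes an anchoring protein for protein kinase A. It read 96.8, 99.5 and 92.8 CPM in CIH, against 51.0, 57.1 and 49.3 in normoxia, so that the log2 fold change was 0.87 with an SE of 0.13 (edgeR, adjusted p = 0.498). The 3 CIH libraries lay close together and well above normoxia, although another gene ID with the symbol Pakap is counted apart (log2 fold change 0.64), so reads of the locus may be split. Nmnat2, whose enzyme makes the coenzyme NAD, read 67.2, 67.0 and 64.2 CPM in CIH and 42.8, 37.9 and 41.7 in normoxia (log2 fold change 0.70, SE 0.14). Elmo1, an engulfment and cell motility gene that acts on Rac, read 1460, 1356 and 1227 CPM in CIH and 961, 1003 and 1048 in normoxia (0.42, SE 0.09). Both were chosen among genes without overlap between the groups. Azin1, an inhibitor of antizyme in polyamine metabolism, read 48.0, 46.0 and 54.1 CPM against 24.7, 29.2 and 29.6 (0.83, SE 0.18). St6galnac3, a sialyltransferase gene and the most abundant of these, read 3776, 3900 and 3321 CPM in CIH and 2754, 2928 and 2785 in normoxia (0.38, SE 0.08). Zfand4, mt-Nd2 and Pxylp1 completed the 8, with log2 fold changes of 0.99, 0.91 and 0.86. All 8 also had log2 fold changes above 0 in Il33/Opalin-type nuclei. Elmo1, Nmnat2, St6galnac3 and Zfand4 had no overlap there, and the rest overlapped.

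On the lower side, Lingo2, which encodes a leucine-rich repeat membrane protein related to the myelination inhibitor LINGO-1, read 205, 210 and 218 CPM in CIH, against 308, 312 and 415 in normoxia. Its log2 fold change was -0.71 with an SE of 0.13 (edgeR, adjusted p = 0.517). The CIH libraries lay close together and below normoxia, where the third library was highest. Sf3b3, a splicing factor gene, read 44.5, 48.7 and 48.5 CPM in CIH and 92.1, 80.1 and 69.6 in normoxia (-0.76, SE 0.15). Cdh8, the gene of a classical cadherin, read 81.1, 69.0 and 63.0 CPM in CIH and 105, 147 and 101 in normoxia (-0.75, SE 0.17). Aldh1l2, whose mitochondrial enzyme acts on folate, read 22.7, 31.8 and 32.3 CPM in CIH and 57.6, 57.1 and 47.7 in normoxia (-0.87, SE 0.19). Lack of overlap between the groups was again a condition of the choice. Cachd1, Masp1 and Prmt2 had log2 fold changes of -0.50, -0.77 and -0.63. In Il33/Opalin-type nuclei the genes named in this paragraph also lay below 0, except Cdh8 (0.22). Only Aldh1l2 and Masp1 among them had no overlap there. In GENCODE M21 on GRCm38 these are the genes at chr4:35706647-36951747 (Lingo2, minus strand), chr13:20090596-20608353 (Elmo1, plus strand) and chr8:99024471-99416471 (Cdh8, minus strand).

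**Figure D3:**
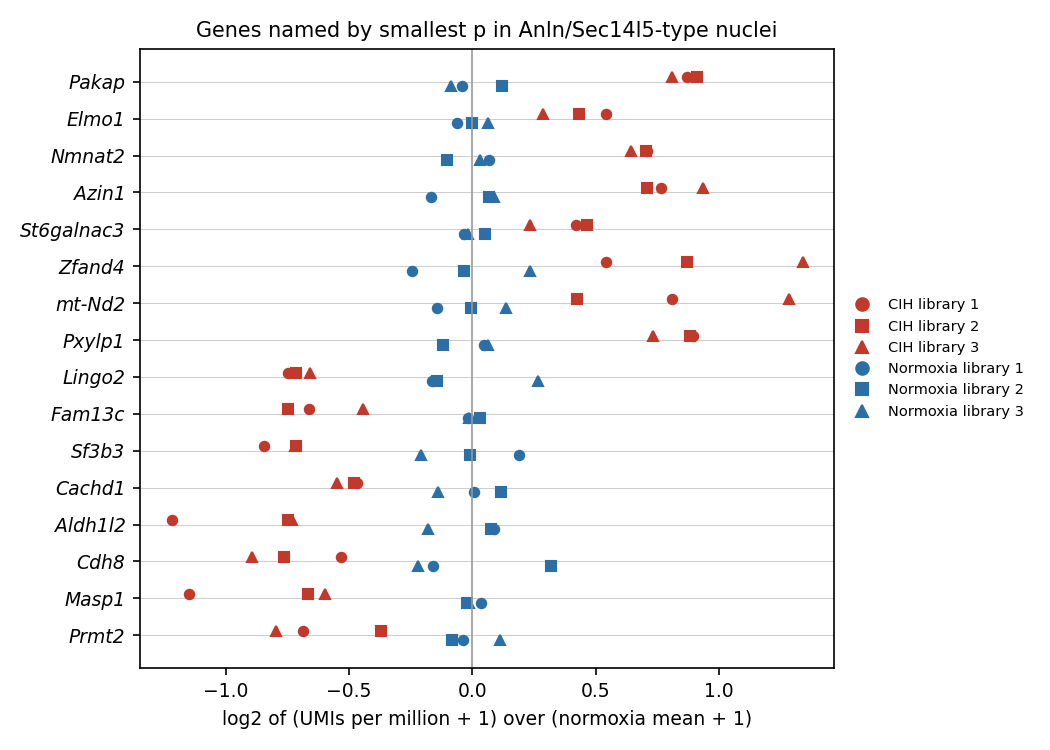
Genes of smallest p in Anln/Sec14l5-type nuclei among those whose groups do not overlap, as log2 of CPM plus 1 over the normoxia mean plus 1, with 1 point per library. No gene passed the test; the CIH points of Pakap lie together at 92.8 to 99.5 CPM and those of Lingo2 at 205 to 218 CPM, apart from normoxia.

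Hypoxia-inducible factors switch on genes for glucose uptake, glycolysis and blood vessel growth. Of the 38 genes of the hypoxia response list, 29 were tested in members, 16 lay above and 13 below their normoxia level, and 0 were called. The list's median log2 fold change was 0.13, against 0.00 over all genes, and -0.03 with the third CIH library left out. Vegfa, the vascular growth factor gene, read 10.5, 10.8 and 17.2 CPM in CIH and 7.40, 8.07 and 15.3 in normoxia, which overlapped. Slc2a1, the glucose transporter gene, read 36.6, 39.3 and 42.4 CPM in CIH and 31.2, 39.1 and 35.1 in normoxia. Hif3a, which encodes an alpha subunit of these factors, was too low to be tested in members, with 5, 10 and 50 UMIs in CIH and 1, 1 and 4 UMIs in normoxia. That is 4.27, 6.59 and 15.7 CPM against 0.797, 0.605 and 2.17, so every CIH library lay above normoxia. In Il33/Opalin-type nuclei Hif3a had 32, 21 and 96 UMIs in CIH and 4, 6 and 6 in normoxia, with a log2 fold change of 3.38 and an SE of 0.39 (edgeR, adjusted p = 0.0709). Fam13c, known from all oligodendrocytes of these libraries to lie lower in CIH, read 154, 146 and 180 CPM in members in CIH and 242, 250 and 243 in normoxia, without overlap. Its log2 fold change was -0.61 with an SE of 0.11 (edgeR, adjusted p = 0.517), and -0.71 with an adjusted p of 0.0487 without the third CIH library.

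Glucocorticoids act through a nuclear receptor that binds DNA as a dimer, and the genes they induce include Fkbp5, Sgk1 and the metallothioneins. Of the 22 genes of that list, 17 were tested in members, 15 lay above their normoxia level, and in 9 every CIH library lay above every normoxia library, against 5.01% of all genes. None was called. The list's median log2 fold change was 0.67 with all libraries and 0.38 without the third CIH library, where 14 of 17 lay above. In Il33/Opalin-type nuclei, with all libraries, 15 of 17 also lay above, with a median of 0.76. Sgk1, a kinase gene, read 95.1, 74.5 and 209 CPM in CIH and 40.3, 32.9 and 63.6 in normoxia, with a log2 fold change of 1.49 and an SE of 0.37 (edgeR, adjusted p = 0.846). Fkbp5, which encodes an immunophilin of the receptor's chaperone complex, read 54.1, 60.9 and 166 CPM in CIH and 37.8, 24.2 and 41.1 in normoxia (1.50, SE 0.41). In both genes the third CIH library was the highest by far and the groups did not overlap. Without that library Sgk1 read 0.86 and Fkbp5 0.74 on the log2 scale. Mt2, a metallothionein gene, read 13.1, 8.80 and 31.3 CPM in CIH and 5.76, 1.24 and 7.67 in normoxia (1.94, SE 0.59), and 1.11 without it. Arrdc2, an arrestin-domain gene, read 50.6, 52.8 and 87.9 CPM against 37.0, 34.1 and 40.0 (0.82, SE 0.23), and 0.48 without it. Pdk4, which encodes a kinase that shuts off pyruvate dehydrogenase, read 28.8, 19.6 and 21.5 CPM in CIH and 15.6, 12.4 and 12.6 in normoxia (0.77, SE 0.25). The receptor genes Nr3c1 and Nr3c2 read 0.05 and 0.12 with overlap. The list was already known from these data to lie higher in CIH oligodendrocytes, and the summed astrocyte markers given above were also highest in the third CIH library; their part in these values was not tested.

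The promoter stretches of list genes that hold the palindromic pattern of a glucocorticoid response element are shown because most of the list lay higher in CIH. The pattern searched was GNACANNNTGTNC, which reads the same on both strands, in windows of 300 bases (250 before and 50 after the start) of RefSeq on GRCm38. It was found in 3 of the 19 list genes with a window and in 156 of all 32851 windows (0.475%). The first count is of genes and the second of windows, so they cannot be compared as shares. The list was also made of genes known to respond to glucocorticoids. Each sequence gives 20 bases on either side, 5′ to 3′ on the plus strand, with the pattern in capitals:
Sgk1: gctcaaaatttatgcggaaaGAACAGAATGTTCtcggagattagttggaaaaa
Mt1: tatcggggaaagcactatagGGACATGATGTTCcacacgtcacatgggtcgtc
Map3k6: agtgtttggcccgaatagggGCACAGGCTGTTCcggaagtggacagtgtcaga
The Sgk1 stretch lies at chr10:21993682-21993734, with the pattern's first base 188 bases before the start. The Mt1 stretch lies at chr8:94178975-94179027 (94 bases before the start) and the Map3k6 stretch at chr4:133240617-133240669 (181 bases before). Mt1 read 62.8, 65.0 and 196 CPM in members in CIH and 47.7, 34.8 and 60.8 in normoxia, and Map3k6 was too low to be tested. A match is a description of these letters. Sgk1 has several start sites, and the counts do not tell which was used.

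**Figure D4:**
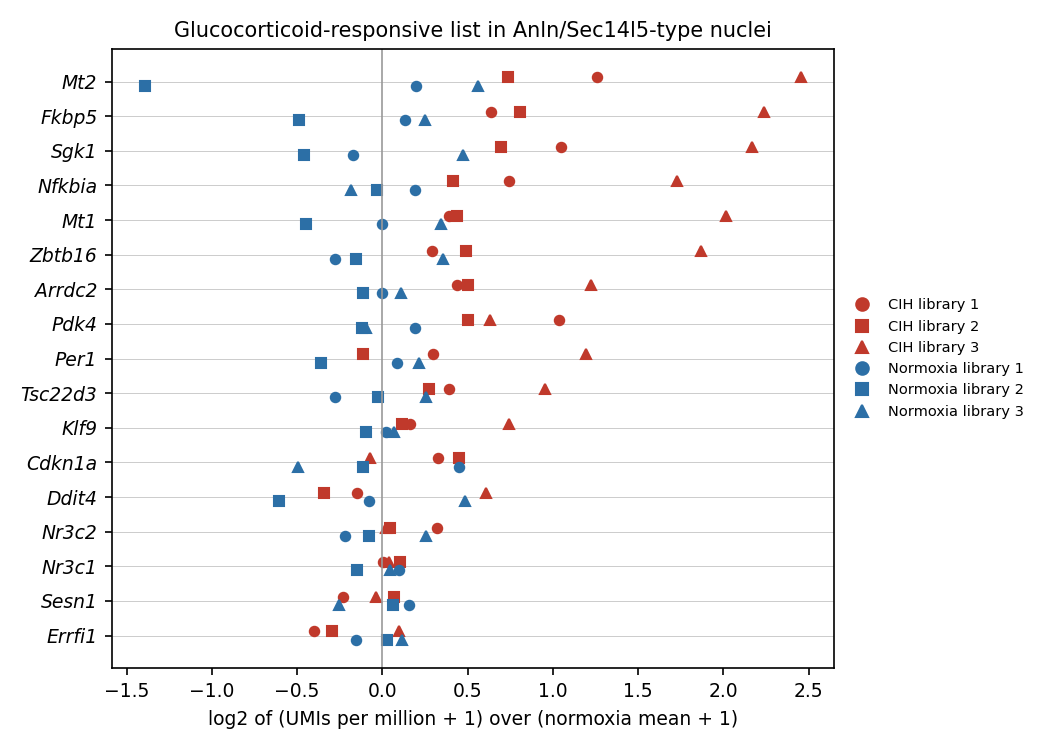
The 17 tested glucocorticoid-responsive genes in Anln/Sec14l5-type nuclei, ordered by log2 fold change, as log2 of CPM plus 1 over the normoxia mean plus 1, with 1 point per library. The third CIH library is farthest to the right for Fkbp5 (166 CPM) and Sgk1 (209 CPM), and the other CIH libraries lie to the right of normoxia in both.

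The position of genes of energy metabolism depended on the third CIH library. All 11 tested mitochondrially encoded RNAs lay above their normoxia level, with a median log2 fold change of 0.91, and 8 of 11 with a median of 0.10 without that library. The nuclear-encoded genes of the respiratory chain lay above in 48 of 50 with a median of 0.41, and in 11 of 50 with a median of -0.22 without it. In Il33/Opalin-type nuclei, with all libraries, 12 of 12 mitochondrially encoded RNAs lay above (median 0.63). So did 50 of 51 respiratory chain genes there (median 0.43). mt-Co1, a subunit of cytochrome c oxidase, read 275, 206 and 681 CPM in CIH and 181, 179 and 265 in normoxia (0.91, and 0.19 without that library). mt-Nd2, a subunit of complex I, read 119, 90.7 and 165 CPM against 60.9, 67.0 and 74.0 and did not overlap. Chaperones lay above in 18 of 30 with all libraries (median 0.07) and in 6 of 29 without it (median -0.12). Slc1a2, a glutamate transporter gene abundant in astrocytes, read 35.8, 29.8 and 210 CPM in CIH and 18.1, 21.1 and 41.1 in normoxia (1.83, and 0.23 without that library), and the mitochondrial share of members in that library was the highest, as given above. The part of either in these lists was not tested.

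**Figure D5:**
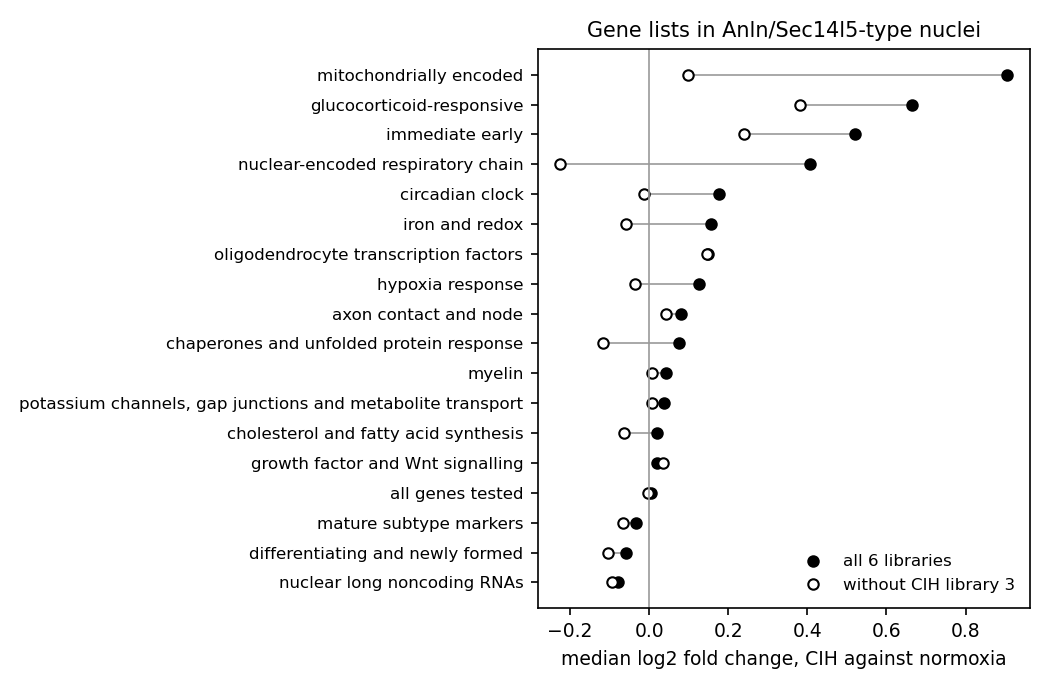
Median log2 fold change of each gene list in Anln/Sec14l5-type nuclei, CIH against normoxia, with all 6 libraries (filled) and without the third CIH library (open). The respiratory chain moves from 0.41 to -0.22 and the mitochondrially encoded RNAs from 0.91 to 0.10, while the transcription factors stay at 0.15.

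No gene of oligodendrocyte identity passed the test. Of 19 oligodendrocyte transcription factors tested, 17 lay above their normoxia level, against 50.8% of all genes, and 3 had no overlap, against 5.01%. The median log2 fold change was 0.15, and 13 lay above without the third CIH library. Olig1, a lineage factor gene, read 55.0, 44.0 and 75.0 CPM in CIH and 39.5, 31.7 and 38.4 in normoxia (log2 fold change 0.70, SE 0.22), and Sox10 read 274, 305 and 199 against 368, 315 and 267 (-0.30, SE 0.17). Without the third CIH library these values were 0.43 and -0.12, and Sox10 read -0.18 without the first normoxia library. Of 31 myelin genes, 18 lay above and 13 below with a median of 0.04. Mbp, the gene of myelin basic protein, read 4500, 4822 and 4503 CPM in CIH and 4517, 4639 and 4743 in normoxia (-0.01, SE 0.07). The groups overlapped. The lists for cholesterol synthesis, growth factor signalling, subtype markers and differentiation had medians from -0.06 to 0.02; that of cholesterol synthesis was 0.02, and -0.06 with the third CIH library left out. In the subtype markers, Pex5l read 2491, 2310 and 2310 CPM in CIH and 1915, 2081 and 2138 in normoxia (0.21, SE 0.08) and Klk6 82.9, 78.5 and 117 against 118, 115 and 144 (-0.42, SE 0.17; -0.65 without the third CIH library). Among growth factor receptors, Ntrk3, which binds neurotrophin-3, read 56.7, 43.3 and 62.7 CPM against 37.8, 33.5 and 31.2 (0.68, SE 0.19). Of 16 clock genes, 10 lay above, against 50.8% of all genes, and 3 had no overlap, against 5.01%. Their median was 0.18, and the median was -0.01 without the third CIH library. Rora, a nuclear receptor gene of the clock list, read 734, 804 and 750 CPM in CIH against 654, 654 and 618 (0.25, SE 0.08).

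Lists of axon contact and membrane transport had medians near 0, with single genes on either side. Of 30 genes of axon contact and the node, 26 lay above their normoxia level with a median log2 fold change of 0.08 and a range from -0.75 (Cdh8) to 0.84, and 19 of 29 with a median of 0.04 once the third CIH library was left out. Unc5c, a netrin receptor gene, read 1453, 1395 and 1521 CPM in CIH and 1093, 1239 and 1388 in normoxia (0.23, SE 0.10), close but without overlap, and 0.15 without the first normoxia library. Of 28 genes for potassium channels, gap junctions and transporters, 17 lay above with a median of 0.04 and a range from -0.32 to 1.83 (Slc1a2). Kcnd2, a voltage-gated potassium channel gene, read 504, 264 and 474 CPM in CIH and 257, 260 and 286 in normoxia (0.63, SE 0.20), with the second CIH library inside the normoxia range. Of 22 iron and redox genes, 14 lay above with a median of 0.16, and 9 with a median of -0.06 once the third CIH library was left out. Fth1, the ferritin heavy chain gene, read 954, 839 and 1653 CPM against 755, 723 and 973, which overlapped (0.50, and 0.13 without the third CIH library). Only 3 of 24 immediate early genes were high enough to test, with a median of 0.52, and 4 with a median of 0.24 when the third CIH library was left out. Of 14 nuclear long noncoding RNAs, 11 lay below, with a median of -0.08. Malat1, the most abundant of them, read 131375, 133292 and 74744 CPM in CIH and 157747, 143176 and 122349 in normoxia, and was lowest in the third CIH library (-0.32, and -0.095 without it).

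The difference between CIH and normoxia was then compared between the 2 types. limma called 0 of 11503 genes (0%) at an adjusted p under 0.05, with 516 (4.49%) at an unadjusted p under 0.05, and edgeR with an interaction term called 1, Bcat1. In simulated data with 11289 genes the 2 types of a library were drawn independently. There this test recovered 10 of 100 genes whose difference was 2-fold and 62 of 100 whose difference was 4-fold. False calls were 9 of 81. In the data both types come from the same library, so these counts do not rank this test against the test within members. Bcat1, which encodes the cytosolic branched-chain aminotransferase, read 210, 221 and 243 CPM in members in CIH and 164, 174 and 176 in normoxia (log2 fold change 0.39, SE 0.10). In Il33/Opalin-type nuclei Bcat1 read 131, 153 and 192 CPM in CIH and 69.4, 63.3 and 75.9 in normoxia (1.20, SE 0.16). CIH libraries lay above normoxia in both types, and the difference of the log2 changes was -0.78 (SE 0.13, adjusted p in limma = 0.157). Cdh8 had -0.75 in members and 0.22 (SE 0.18) in Il33/Opalin-type nuclei, a difference of -0.92 (SE 0.19, adjusted p in limma = 0.561). Grm7, a metabotropic glutamate receptor gene, and Erbb4 had differences of 0.41 and 0.39. Fkbp5 had 1.50 in members and 2.17 (SE 0.38) in Il33/Opalin-type nuclei, a difference of -0.69 (SE 0.20, adjusted p in limma = 0.98).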

How the data were processed

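Nuclei of 3 CIH and 3 normoxia libraries (10x 3' v3.1 chemistry) were analysed. The authors deposited filtered matrices of raw UMI counts for 32285 genes, made with Cell Ranger 6.1.2 per the file headers; the submitters' processing notes name Cell Ranger 3.1.0, Seurat 4.0 and mm10. Members and gene lists were chosen with earlier results of these data known. Raw UMIs were summed per library over members and compared in R 4.3.3 with the quasi-likelihood F test of edgeR 4.0.16 (TMM scaling, filterByExpr, Benjamini-Hochberg over all genes tested, threshold 0.05); SE is that of the log2 fold change. The 18 genes of the rule stayed in library sizes and out of tests. DESeq2 1.42.0 was an alternative. The difference between types was tested with limma 3.58.1 on log2 CPM (prior count 1), and shares with an exact permutation test over libraries (scipy 1.17.1). Doublets were not removed; nuclei with the highest Scrublet scores (scanpy 1.11.5) were left out in an alternative. Procedures were tested on simulated data.

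Named genes were, by rule, the genes of the member rule; up to 8 higher and 8 lower genes of smallest p without overlap where none passed; Hif3a and Fam13c; up to 4 of each list; the 4 of smallest p for the difference between types; and the 12 highest and 12 lowest ratios between types at a mean of at least 30 CPM. Predicted genes were counted and passed over: 1 higher and 3 lower in CIH, and 2 and 2 between types. Other named genes were chosen after their values were seen. Groups came from the sample titles. Alternatives were other scaling, tools, filters, member rules and libraries left out; those on shared barcodes and on single rule genes were added after the data were seen. Replicate numbers were not used as pairs in the main tests, and whether they pair the libraries is not settled. Deviations from the group means correlated at 0.07, 0.11 and 0.39 for same-numbered libraries. For libraries of different number they correlated at -0.27 to 0.19. Some genes are not reported here.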

Additional observations from a re-analysis of the deposited data

How the results depend on the processing

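The count of called genes in Anln/Sec14l5-type nuclei depended on the fit. It was 0 with all libraries in edgeR, with RLE scaling, with DESeq2, with stricter members, with Meg3 under 3, without high doublet scores and with deeper nuclei. It was 158 of 21510 genes with no filter on low counts. With the median UMIs per member nucleus as a covariate it was 176 of 10347 genes. Both fits had Slc1a2 and Slc4a4 of the astrocyte marker list, mt-Co1 and Sgk1 among their genes of smallest p. Slc1a2 and Slc4a4 read 214 and 153 CPM of all UMIs in the third CIH library, and at most 40.7 and 39.2 in the others. The part of that library in these calls was not tested. Leaving out single libraries gave 0 to 6 calls, the 6 without the third CIH library. The replicate number as a block gave 31 calls, although the numbers share no stated source, and the difference between types had 0 calls with that block. That difference had 1 call with an edgeR interaction term and 0 to 5 calls with single libraries left out, the 5 without the third CIH library. The CIH difference in the gated share was 3.14 points without Aspa in the rule, 3.17 without Cdh19 and 1.39 without Aspa, C030029H02Rik and Cdh19, and that in the share of kept nuclei turned from 1.20 to -0.18 without those 3. In the other settings tried the gated share was higher in CIH with no overlap. With single libraries left out, these log2 fold changes ranged from a value below 0, reached without the third CIH library, to one above it: Cnp from -0.047 to 0.75, Fyn from -0.098 to 0.35, Apoe from -0.022 to 1.70, Tpi1 from -0.23 to 1.04, Pgk1 from -0.21 to 0.80, Hspa8 from -0.086 to 0.87, Hsp90ab1 from -0.064 to 0.48, Hspd1 from -0.044 to 0.55, Atp5b from -0.076 to 1.00 and Grm7 from -0.027 to 0.27. Frmd4a ranged from -0.52 to 0.37, the latter without the second normoxia library, and read 0.24 with stricter members and 0.30 without the first CIH and second normoxia libraries, which also turned Klf6 to -0.088. The cause was not tested. The exact permutation p for the gated share was 0.2 at best once a library was left out. Sums of 1172061 to 3181452 UMIs limit what can be seen of genes as low as Hif3a, and intervals on counts cover counting error only.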
